A study of Mus musculus with 4 samples.

Results

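Conventional CD4 T cells were taken as the cells that carried T cell receptor genes together with Cd4 or Cd40lg and no sign of another T cell type, and they numbered 1299 of 55902 kept cells, or 2.32%. Membership required at least 2 unique molecular identifiers (UMIs, each standing for 1 captured RNA molecule) summed over Cd3e, Cd3d, Cd3g and Trac, and at least 1 over Cd4 and Cd40lg. It also required 0 UMIs of Cd8a and Cd8b1, 0 of Foxp3, 0 of Trdc, and at most 2 over 6 microglia genes. The levels of these genes chose the cells and are given only as a description.

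The wild-type mice had an ischemic stroke, received hydrogel microspheres (MAPS) in the infarct cavity on day 5 and gave the injured hemisphere for single-cell RNA sequencing on day 14. There were 4 groups with 1 library each. IL-4/C1q EV is the library of mice given MAPS carrying extracellular vesicles (EVs) from astrocytes activated with IL-4 and C1q; IL-1a/TNFa/C1q EV had astrocyte vesicles that the labels name for IL-1a, TNFa and C1q; UT EV had the vesicles called UT, which the labels do not spell out; and MAPS had microspheres without vesicles. All 4 groups shared the stroke and the microspheres, the labels do not give the number of animals behind a library, and no difference between libraries has a replicate check: the treatment cannot be told apart from the library or the animals. Intervals in parentheses are 95% intervals and cover counting error only. Those of ratios of gene levels between libraries count UMIs and leave out the spread between cells.

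CD4 T cells recognise peptides on MHC class II molecules through the alpha-beta T cell receptor and act mainly by secreting cytokines and by surface ligands such as CD40L, the product of Cd40lg. Helper subsets are named for their cytokines: Th1 cells for interferon gamma, Th17 cells for interleukin 17, Th2 cells for interleukin 4. After stroke, T cells enter the injured brain from the blood, and cells that stay in tissue lose the genes of recirculation, such as S1pr1 and Ccr7.

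The share of members with an alpha-beta constant chain is a description, since the rule used Trac. Trac or another alpha-beta constant chain was seen in 99.0% of members in IL-4/C1q EV, 99.4% in IL-1a/TNFa/C1q EV, 99.2% in UT EV and 100% in MAPS. The label fitted Trbc2, a beta chain constant gene that the rule did not use. Trbc2 stood at 2591, 2670.5, 2506 and 1511 counts per 1000000 UMIs (CPM) in the same order, against 15.5 to 44.0 CPM in the cells outside the T cell gate. Markers of related cells were present too. The regulatory T cell list summed to 1795, 1693, 1434 and 571 CPM, with Foxp3 at 0 by the gate. The CD8 T cell list summed to 1123, 998, 1273 and 2878 CPM, with Cd8a and Cd8b1 at 0 by the gate. Beside them, Cd4, Cd40lg, Cd3e and Trac summed to 1286, 1207, 1381 and 2225 CPM. The 6 natural killer cell markers summed to 490, 487, 325 and 80.7 CPM in 53, 160, 66 and 82 members, with Ncr1 at 0 UMIs in every library, and 6, 21, 7 and 4 members held Trgc1, Scart1 or Blk, genes found in gamma-delta T cells, with Trdv4 at 0. The route into the group differed: members with a Cd40lg UMI and no Cd4 UMI made up 91 of 195 cells in IL-4/C1q EV, 302 of 504 for IL-1a/TNFa/C1q EV and 170 of 258 for UT EV, but 48 of 342 in MAPS. At the edges of the gate, 4, 6, 5 and 1 members had exactly 2 T cell gene UMIs and 2, 8, 4 and 3 cells missed it with 1, while 109, 306, 143 and 115 members had exactly 1 UMI of Cd4 or Cd40lg and 362, 717, 359 and 154 T cells had 0 UMIs of every gene that separates the types. At the microglia cap, 1, 11, 3 and 37 members had 2 UMIs and 2, 11, 4 and 8 cells missed it with 3. No cell barcode was shared between members of different libraries, and 41 to 63 barcodes were shared between any pair of libraries over all kept cells.

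The libraries held 12766 to 14978 kept cells, where the labels' protocol aimed at about 8000. Members had a median of 2070 UMIs in IL-4/C1q EV, 1930 in IL-1a/TNFa/C1q EV, 2139.5 in UT EV and 4271.5 in MAPS, and MAPS members also had a higher median mitochondrial share, 1.43% against 0.532% to 0.578%. Shares of cells that express a gene are therefore also given after cells were thinned to 1200 UMIs. Cell counts and shares given without that depth are of cells as sequenced, where MAPS was deeper. The median gene with at least 10 UMIs was lower in each EV library than in MAPS, by 0.79, 0.94 and 0.77 on the log2 scale for IL-4/C1q EV, IL-1a/TNFa/C1q EV and UT EV, and contrasts with MAPS are to be read against those shifts. An 18S ribosomal RNA copy, Rn18s-rs5, held 27683, 21721 and 30240 CPM of member UMIs in the 3 EV libraries and 2773 CPM in MAPS; its part in the shifts was not tested.

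With the full gate, CD4 T cells had their lowest share in IL-4/C1q EV. Their percentage of kept cells was 1.36 (1.18 to 1.56) for IL-4/C1q EV, 3.36 (3.08 to 3.67) for IL-1a/TNFa/C1q EV, 2.02 (1.78 to 2.28) for UT EV and 2.47 (2.22 to 2.74) for MAPS. The share in IL-4/C1q EV was 0.674 times that in UT EV (0.556 to 0.814) and 0.405 times that of the IL-1a/TNFa/C1q EV library (0.341 to 0.478). Among cells that passed the T cell gate, CD4 members were 20.8% in IL-4/C1q EV, 28.7% in IL-1a/TNFa/C1q EV, 27.7% in UT EV and 27.7% in MAPS. The order of the libraries rests on the gate: with Cd4 alone in place of Cd4 or Cd40lg, the shares of kept cells became 0.726%, 1.35%, 0.689% and 2.13%, which puts IL-4/C1q EV, on 104 cells, slightly above UT EV, on 88, and MAPS highest.

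With the full gate, the balance with CD8 T cells, gated in the same way on Cd8a and Cd8b1, differed more than the CD4 share. There were 195 CD4 and 207 CD8 cells in IL-4/C1q EV, 504 and 271 for IL-1a/TNFa/C1q EV, 258 and 132 for UT EV and 342 and 647 for MAPS. That is 0.942, 1.86, 1.95 and 0.529 CD4 cells per CD8 cell, so the IL-1a/TNFa/C1q EV and UT EV libraries held more CD4 than CD8 T cells and MAPS held more CD8. With Cd4 alone the ratios fell below 1 in every library, at 0.502, 0.745, 0.667 and 0.454. They then differed less than the CD4 share of kept cells, which ran from 0.689% in UT EV to 2.13% in MAPS. Regulatory T cells with a Foxp3 UMI numbered 30, 38, 22 and 11, and gamma-delta T cells 130, 204, 141 and 28.

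**Figure D1:**
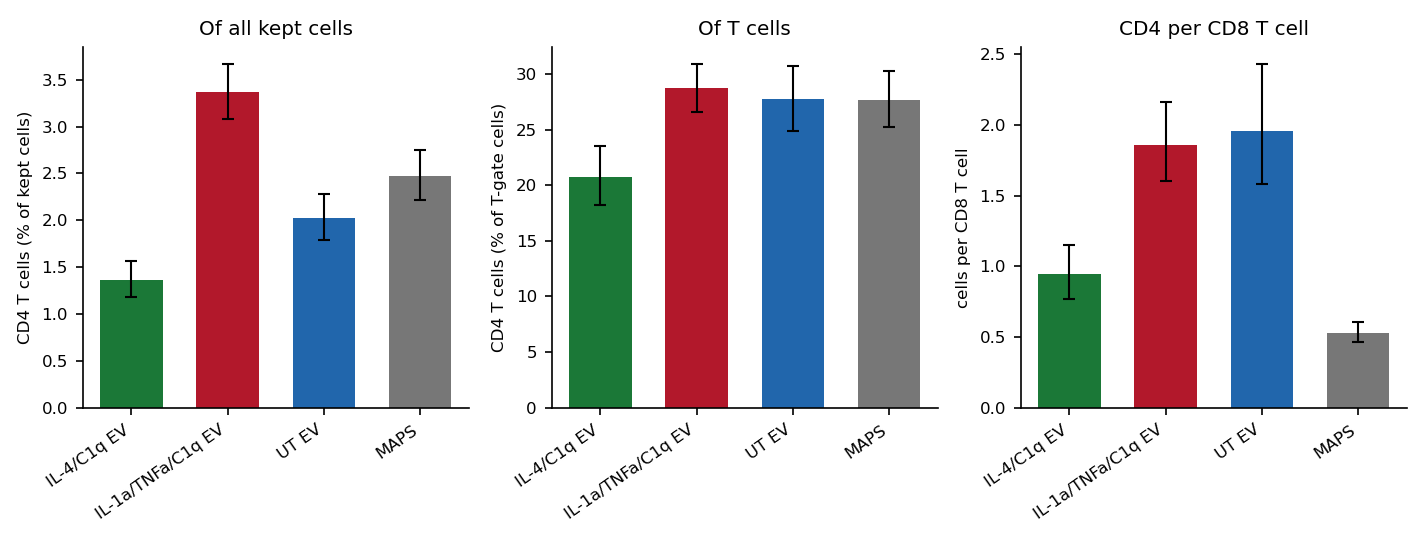
CD4 T cells as a percentage of kept cells (left), as a percentage of cells passing the T cell gate (middle) and per CD8 T cell (right) in each library, with 95% exact binomial counting intervals and 1 library per bar. The bar of IL-4/C1q EV is the lowest of the 4 in the left and middle panels, and that of MAPS is the lowest in the right panel.

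Interleukin 17 set the EV libraries apart from MAPS. Il17a, which encodes the cytokine IL-17A, had 728 UMIs in 44 of 195 cells of IL-4/C1q EV, 3166 in 143 of 504 cells of IL-1a/TNFa/C1q EV and 717 in 44 of 258 cells of UT EV, against 1 UMI in 1 of 342 cells of MAPS. Those sums are 1427, 2465, 1131 and 0.607 CPM. All 3 EV libraries thus had Il17a in many cells and at many molecules per cell (medians of 12, 16 and 12 UMIs in a positive cell), and MAPS had next to none. The ratio to MAPS was 2352 (421 to 93025) for IL-4/C1q EV, 4063 (729 to 160523) for IL-1a/TNFa/C1q EV and 1865 (334 to 73762) for UT EV, with intervals that wide because MAPS had 1 UMI.

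At 1200 UMIs per cell, Il17a was carried by 23.3% (17.5 to 30.0), 26.0% (22.2 to 30.1) and 15.7% (11.4 to 20.9) of members for IL-4/C1q EV, IL-1a/TNFa/C1q EV and UT EV, and by 0 of 341 cells for MAPS, which allows a share of cells with a UMI of up to 0.880% (3 cells of 341). Cells high in microglia genes, which should lack the gene, had a share of 0.0333%, 0.267%, 0% and 0% at the same depth. Between EV libraries, the Il17a level of IL-1a/TNFa/C1q EV was 2.18 times that of UT EV (2.01 to 2.37), and IL-4/C1q EV had 0.579 times (0.533 to 0.628) the IL-1a/TNFa/C1q EV level. A single cell held up to 82, 118 and 65 Il17a UMIs in IL-4/C1q EV, IL-1a/TNFa/C1q EV and UT EV, a spread that these ratio intervals leave out. Il17a stood at 1188, 2136 and 398 CPM in members with a Cd4 UMI and at 1728, 2704 and 1539 CPM in members with Cd40lg only, in IL-4/C1q EV, IL-1a/TNFa/C1q EV and UT EV; it was present by either route.

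Most of the Th17 list was higher too. Of 11 Th17 genes, 10, 9 and 6 reached 10 UMIs over the pair in IL-4/C1q EV, IL-1a/TNFa/C1q EV and UT EV against MAPS, and in 9, 8 and 5 of them the whole interval lay more than 1.5-fold above MAPS. Over all genes with at least 10 UMIs that share was 7.01%, 8.73% and 6.01%. Of the measured Th17 genes, 3, 2 and 0 were at 0 UMIs in MAPS. These reached 10 UMIs through the EV library alone, which put them past 1.5-fold in advance. Il17f, a second IL-17 chain, stood at 74.5 CPM in IL-4/C1q EV, 28.0 in IL-1a/TNFa/C1q EV, 12.6 in UT EV and 0.607 in MAPS. Ccr6, the receptor for CCL20, had 29.4, 18.7 and 14.2 CPM and was at 0 UMIs in MAPS, as was the interleukin 1 receptor gene Il1r1 with 27.4, 10.1 and 4.73 CPM.

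Rora went the other way, at 120, 90.3 and 120 CPM in the EV libraries and 238 CPM in MAPS; it encodes a nuclear receptor also used by other T cells. Among the EV libraries, the less abundant Th17 cytokines were highest in IL-4/C1q EV: the ratio of Il17f was 5.90 over UT EV (2.71 to 14.6) and 2.66 (1.64 to 4.31) over IL-1a/TNFa/C1q EV. Of the 38 Il17f UMIs of IL-4/C1q EV, in 12 cells, 11 lay in 1 cell. Il22, an epithelial repair cytokine, rests on 13 UMIs in 2 cells of IL-4/C1q EV, 4 UMIs in IL-1a/TNFa/C1q EV, 2 in UT EV and 0 in MAPS.

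**Figure D2:**
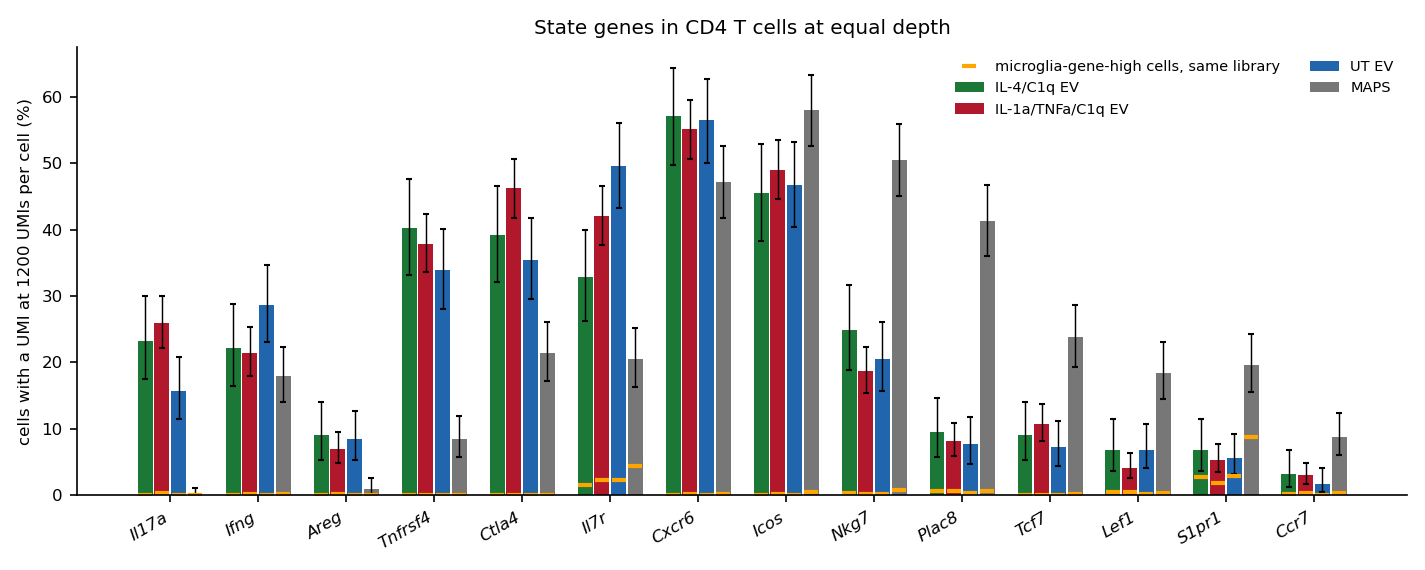
Percentage of CD4 T cells with a UMI of each gene after thinning to 1200 UMIs per cell, by library, with 95% exact counting intervals; orange dashes are cells high in microglia genes of the same library. Il17a, Areg and Tnfrsf4 are high in the 3 EV libraries and low in MAPS, whereas Nkg7, Plac8, Tcf7 and Lef1 are highest in MAPS.

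Members with an Il17a UMI differed from the other members of their own library. Tmem176a, a membrane protein gene found in Th17 cells, had 1042 against 273 CPM in IL-4/C1q EV, 572 against 174 CPM for IL-1a/TNFa/C1q EV and 929 against 141 CPM in UT EV. Ramp1, part of the receptor for the neuropeptide CGRP, had 1177 against 281, 1045 against 244 and 738 against 266 CPM. The cytotoxic granule gene Nkg7 was lower in them, with 71.9 against 449, 85.1 against 390 and 0 against 449 CPM, and so was the chemokine gene Ccl5, with 98.8 against 1366, 500 against 1155 and 17.4 against 1524 CPM. Depth was close, with median UMIs of 2189.5 against 1988, 2130 against 1908 and 2172.5 against 2121. These cells were picked by Il17a itself, so the contrast is a description with no test. The gamma-delta chain gene Trgc1 was seen in 3 of 44 cells with Il17a against 3 of 151 without for IL-4/C1q EV, in 14 of 143 against 6 of 361 for IL-1a/TNFa/C1q EV and in 0 of 44 against 3 of 214 for UT EV. Trgv2 was seen in 1, 1 and 0 cells with Il17a, and Trdv4 in none. The part of gamma-delta T cells in the Il17a level was not tested.

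Interferon gamma RNA was found in every library. Ifng, the Th1 cytokine gene, had 190 UMIs in 51 cells of IL-4/C1q EV, 573 in 144 cells of IL-1a/TNFa/C1q EV, 440 in 92 cells of UT EV and 409 in 131 cells of MAPS, which is 372, 446, 694 and 248 CPM. UT EV was highest: IL-4/C1q EV had 0.536 times its level (0.450 to 0.637) and IL-1a/TNFa/C1q EV 0.643 times (0.566 to 0.729). At 1200 UMIs, 22.2%, 21.4%, 28.6% and 17.9% of members carried Ifng, against at most 0.133% of cells high in microglia genes. Of the cells with Il17a, 10 of 44 for IL-4/C1q EV, 35 of 143 for IL-1a/TNFa/C1q EV and 12 of 44 for UT EV also had Ifng, or 22.7%, 24.5% and 27.3%.

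The other genes of the Th1 list did not follow Ifng. All 10 members were measured against MAPS, and 7 for IL-4/C1q EV, 9 for IL-1a/TNFa/C1q EV and 9 for UT EV lay more than 1.5-fold below it, where 18.2%, 31.7% and 19.6% of all genes did. The list's median log2 ratio was -1.73, -1.80 and -1.39, and with TMM normalization, which removes most of the shift against MAPS, -1.05, -1.02 and -0.71. Runx3, a factor of cytotoxic and Th1 cells, was 0.151 (0.0899 to 0.239), 0.192 (0.144 to 0.252) and 0.294 (0.212 to 0.399) times its MAPS level. Tbx21, which encodes the Th1 factor T-bet, was 0.233, 0.226 and 0.354 times its MAPS level.

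Further cytokines were also higher in the EV libraries. Areg, which encodes the growth factor amphiregulin, stood at 457 CPM in IL-4/C1q EV, 228 in IL-1a/TNFa/C1q EV, 297 in UT EV and 19.4 in MAPS, in 20, 45, 26 and 4 cells. It was 1.54-fold higher in IL-4/C1q EV than in UT EV (1.26 to 1.88), but the shares of cells with a UMI were close, at 10.3% and 10.1%. In IL-4/C1q EV, 60 of 233 Areg UMIs lay in 1 cell, and in UT EV 38 of 188. Csf2, which encodes GM-CSF, had 43.1, 33.5, 9.47 and 0.607 CPM, with 11 of the 22 UMIs of IL-4/C1q EV in 1 of 6 cells, and Il21, a cytokine that helps B cells, 11.8, 17.9, 11.0 and 0 CPM. Of 20 helper cytokine genes, 16, 18 and 15 were measured against MAPS. Of these, 9, 12 and 8 lay more than 1.5-fold above it and 0, 2 and 0 below. Of all genes, 7.01%, 8.73% and 6.01% lay above and 18.2%, 31.7% and 19.6% below. For IL-1a/TNFa/C1q EV, 1 of the 18 was at 0 UMIs in MAPS and so was measured through the EV library alone. Il4 reached 36.6 CPM in IL-1a/TNFa/C1q EV, against 1.96, 3.16 and 2.43 CPM elsewhere, but 63.8% of those 47 UMIs lay in 1 cell.

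Genes of naive and recirculating T cells were lower in every EV library than in MAPS. All 10 genes of the list were measured, and in each EV library 9 lay more than 1.5-fold below MAPS and 1, Il7r, more than 1.5-fold above, where 18.2%, 31.7% and 19.6% of all genes lay below and 7.01%, 8.73% and 6.01% above. The median log2 ratios were -1.76 for IL-4/C1q EV, -2.33 for IL-1a/TNFa/C1q EV and -1.66 for UT EV, against the shifts of all genes given above, and -1.08, -1.55 and -0.98 with TMM normalization. S1pr1, a receptor that guides T cells out of lymph nodes, had 70.6, 47.5 and 71.0 CPM in the EV libraries and 229 CPM in MAPS. Ccr7, the lymph node chemokine receptor, had 37.2, 24.9, 30.0 and 133 CPM, and Lef1, a factor of naive T cells, 56.8, 28.8, 50.5 and 161 CPM.

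Equal depth kept MAPS highest for Tcf7 but not the order of the EV libraries. At 1200 UMIs, Tcf7, the partner factor of Lef1, was seen in 8.99% (5.33 to 14.0), 10.7% (8.15 to 13.7), 7.26% (4.36 to 11.2) and 23.8% (19.3 to 28.6) of members. Il7r, the receptor for the survival cytokine interleukin 7, was seen in 32.8%, 42.1%, 49.6% and 20.5%. Il7r also separated the EV libraries, at 404 CPM in IL-4/C1q EV and 743 CPM in UT EV, a ratio of 0.543 (0.459 to 0.641).

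Some surface receptors of activated helper cells were higher in the EV libraries. Of 15 costimulatory genes, 5, 4 and 3 lay more than 1.5-fold above MAPS and 6, 7 and 5 below. Of all genes, 7.01%, 8.73% and 6.01% lay above and 18.2%, 31.7% and 19.6% below with UMI totals. With TMM normalization 6, 5 and 5 of the 15 lay above and 1 below in each. With that scaling, 1237 of 6566, 1640 of 7246 and 1241 of 6669 genes lay above and 459, 986 and 497 below. Those are genes with at least 40 UMIs over the pair. Markers of regulatory T cells, a list that holds Tnfrsf4 and Ctla4, moved with this contrast, at 1795, 1693 and 1434 CPM in the EV libraries and 571 CPM in MAPS with Foxp3 at 0 by the gate; their part was not tested. Tnfrsf4, the costimulatory receptor OX40, stood at 702, 643 and 555 CPM there and 82.5 CPM in MAPS, and was seen in 76 of 189, 191 of 504, 84 of 248 and 29 of 341 members at 1200 UMIs. Ctla4, an inhibitory receptor, had 527, 681, 541 and 225 CPM and was seen in 39.2%, 46.2%, 35.5% and 21.4%. Tnfsf8, which encodes CD30 ligand, had 180, 192, 196 and 36.4 CPM, and the survival gene Bcl2a1b 1008, 982, 1029 and 201 CPM. Cxcr6, a receptor of tissue-dwelling T cells, was close in all 4 libraries, at 866, 919, 975 and 738 CPM, and Icos was highest in MAPS, at 492, 599, 609 and 945 CPM.

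Outside the genes of the gate, MAPS members had more of the genes of T cell receptor signalling and MHC class I. All 14 measured signalling genes outside the gate were below MAPS in each EV library, 9, 11 and 9 of them more than 1.5-fold. Their medians of -1.14, -1.09 and -1.03 shrank to -0.46, -0.31 and -0.35 with TMM normalization, where 2, 3 and 4 of the 14 lay above MAPS. Of the CD3 genes of the gate, Cd3d was higher in the EV libraries, at 1476, 1433 and 1206 CPM against 908 CPM in MAPS. Cd3g was higher too, at 2209, 2086 and 2110 against 1125 CPM, and Cd3e was lower, at 267, 206 and 284 against 676 CPM. Of all genes, 18.2%, 31.7% and 19.6% lay more than 1.5-fold below, and 27.8%, 26.8% and 27.6% lay above MAPS by any amount, with UMI totals. The share above by any amount with TMM normalization is not given here. Of 12 class I genes, 7, 11 and 8 lay more than 1.5-fold below MAPS, with medians of -1.31, -1.54 and -1.25, or -0.63, -0.76 and -0.57 with TMM normalization. Ptprc, the phosphatase CD45, had 398, 278, 413 and 1380 CPM. The peptide transporter gene Tap1 was 0.220, 0.217 and 0.163 times its MAPS level and H2-K1, a class I heavy chain, had 1494, 1077, 1247 and 3686 CPM. Plac8, a gene of effector T cells, had 110, 120, 99.4 and 898 CPM and was seen in 9.52%, 8.13%, 7.66% and 41.3% of members at 1200 UMIs.

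The contrast with MAPS was broad. Of genes with at least 40 UMIs over the pair, 2376 of 6566 (36.2%) lay more than 1.5-fold away from MAPS in IL-4/C1q EV, 617 (9.4%) above and 1759 (26.8%) below. For IL-1a/TNFa/C1q EV the total was 3708 of 7246 (51.2%), with 836 (11.5%) above and 2872 (39.6%) below, and for UT EV it was 2401 of 6669 (36%), with 559 (8.38%) and 1842 (27.6%). With TMM normalization the split turned to 1237 above and 459 below, 1640 and 986, and 1241 and 497. Genes whose ratio lies near the shift thus turn their direction with the scaling. In all, 420 of 6453 genes (6.51%) were above MAPS and 1261 (19.5%) below it in all 3 EV libraries, which share the MAPS library. By the naming rule, Il17a, Ramp1, Ier5l, Capg, H4c4 and Rn18s-rs5 led those above, and Sash3, Akna, Klf3, Plac8, Eef2 and Gm37376 those below. Capg, an actin-capping protein gene, had 529, 405, 432 and 51.6 CPM; Ramp1 had 476, 479, 352 and 34.6 CPM, and its 2.05% share of MAPS members at 1200 UMIs lay below the 9.53% of cells high in microglia genes there.

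The heat shock genes Hspa1a and Hspa1b, which also respond to tissue dissociation, were highest in MAPS, at 76.4, 77.9, 148 and 798 CPM and 39.2, 38.9, 104 and 594 CPM. Markers of other cells moved too. The summed level of 10 myeloid markers was 10473, 11673 and 7196 CPM in the EV libraries and 4566 CPM in MAPS, with Saa3 and Ms4a7 at 0 in MAPS. That of 6 endothelial markers was 1309, 441, 1043 and 213 CPM, and that of 6 astrocyte markers went the other way, at 274, 338, 387 and 1338 CPM. The haemoglobin gene Hbb-bs had 5796, 6147, 2241 and 3.03 CPM, with 96.9% of its IL-4/C1q EV UMIs in 1 cell. Their part in the contrasts with MAPS was not tested.

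**Figure D3:**
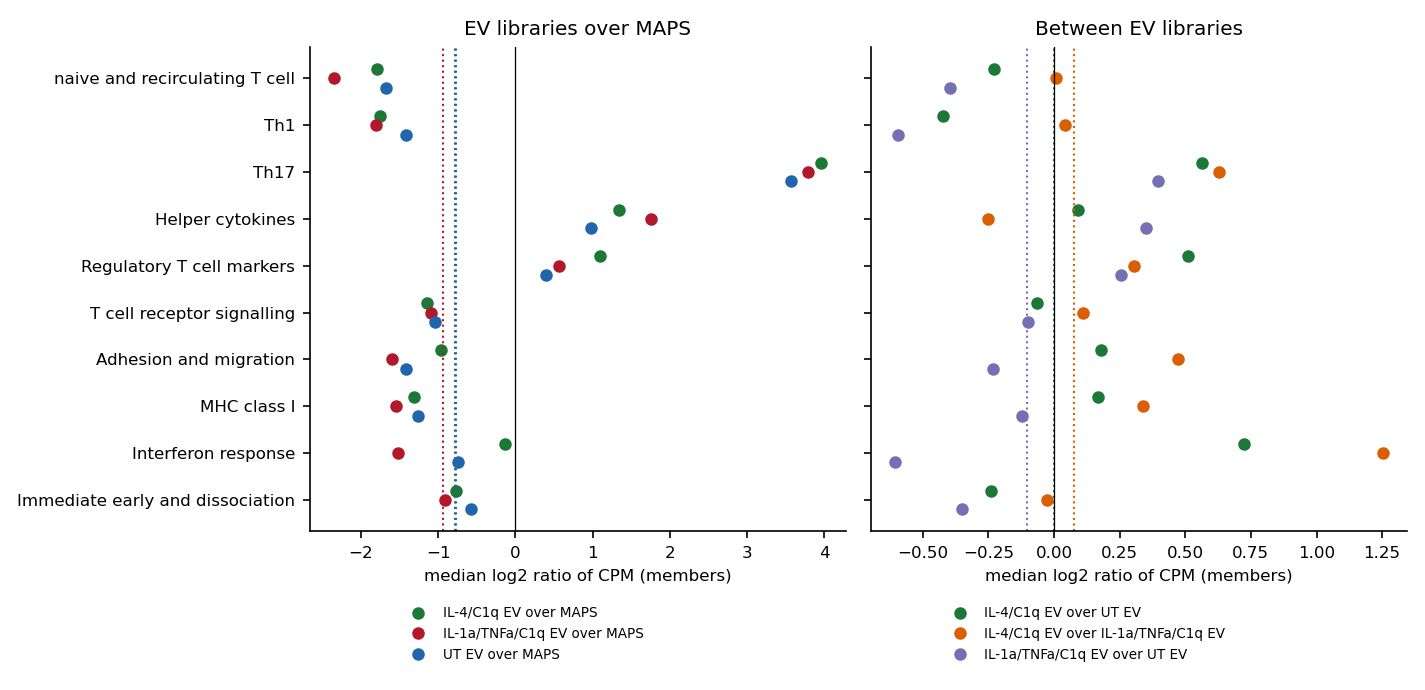
Median log2 ratio of CPM over the members of 10 gene lists in CD4 T cells, for each EV library over MAPS (left) and between EV libraries (right); 0-UMI values are set to 3 UMIs, and dotted lines mark the median of all genes in the same colour. Th17 genes lie far above the dotted lines on the left, and interferon response genes lie above them on the right where IL-4/C1q EV is the numerator.

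Among the EV libraries, interferon response genes stood out in IL-4/C1q EV. Type I interferons act on nearly all cells and switch on a shared set of antiviral genes. Of 35 listed genes, 34 reached 10 UMIs over each pair, and all 34 were above IL-1a/TNFa/C1q EV and 31 above UT EV. In 16 and 5 of them the whole interval lay more than 1.5-fold above, where 1.35% and 1.27% of all genes with at least 10 UMIs did (0.643% and 0.472% lay past it below). The median log2 ratio was 1.25 over IL-1a/TNFa/C1q EV and 0.71 over UT EV, with all genes at 0.08 and -0.00. In the 518 members (all 4 libraries together) without UMIs of C1qa, Lyz2, Cd79a and Cldn5, 24 of 24 and 22 of 23 genes were above, 7 and 7 of them past 1.5-fold. Of all genes with at least 40 UMIs over the pair in those members, 10 of 1727 and 11 of 1514 lay past it above. Below it lay 10 and 11. IL-1a/TNFa/C1q EV lay below UT EV in 29 of 33 genes with a median of -0.63, none past 1.5-fold (1.15% of all genes lay past it above and 0.742% below), and that median turned to 0.12 in those 518 members.

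Ifi27l2a, an interferon-induced mitochondrial protein gene, had 5596 CPM in IL-4/C1q EV, 2523 in IL-1a/TNFa/C1q EV, 2703 in UT EV and 1955 in MAPS. Its IL-4/C1q EV level was 2.07 times that of UT EV (1.95 to 2.20) and 2.22 times (2.11 to 2.33) the IL-1a/TNFa/C1q EV level. Zbp1, a sensor of Z-form nucleic acid, had 247, 114, 118 and 149 CPM and was seen in 25.9%, 12.7%, 13.7% and 13.8% of members at 1200 UMIs, against 9.37%, 2.30%, 2.63% and 1.30% of cells high in microglia genes. Xaf1, a pro-apoptotic interferon gene, had 127, 36.6, 69.4 and 77.7 CPM, and Rtp4, which encodes a chaperone-like receptor transporter, 122, 28.0, 53.7 and 89.8 CPM. Isg15, a ubiquitin-like modifier, had 717, 261, 358 and 164 CPM, but its 34.9% share in IL-4/C1q EV members at 1200 UMIs was close to the 31.8% of cells high in microglia genes. Reads of Ifi206, Ifi208 and Ifi213 may be shared, since these genes are close paralogs.

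Single cells showed it too. At 1200 UMIs a member held a median of 13 UMIs of the 35 genes in IL-4/C1q EV, 5 in IL-1a/TNFa/C1q EV, 6 in UT EV and 6 in MAPS, with quartiles of 8 to 20, 3 to 8, 3 to 9 and 3 to 11. At least 10 such UMIs were found in 68.3% (61.1 to 74.8), 20.8% (17.4 to 24.6), 22.6% (17.5 to 28.3) and 30.8% (25.9 to 36.0) of members in the same order. The pattern was not particular to CD4 cells. Foxp3 regulatory T cells, on 27, 38, 21 and 11 cells, had medians of 15, 8, 8 and 6, none below that of the CD4 cells. CD8 T cells had medians of 10, 4, 5 and 4, gamma-delta T cells 5, 2, 2 and 3, and cells high in microglia genes 7, 1, 2 and 2. Over all kept cells, 35 of 35 genes were higher in IL-4/C1q EV than in UT EV, with a median log2 ratio of 1.37. Against MAPS the CD4 list median of IL-4/C1q EV depended on the scaling, at -0.12 with UMI totals and 0.56 with TMM.

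**Figure D4:**
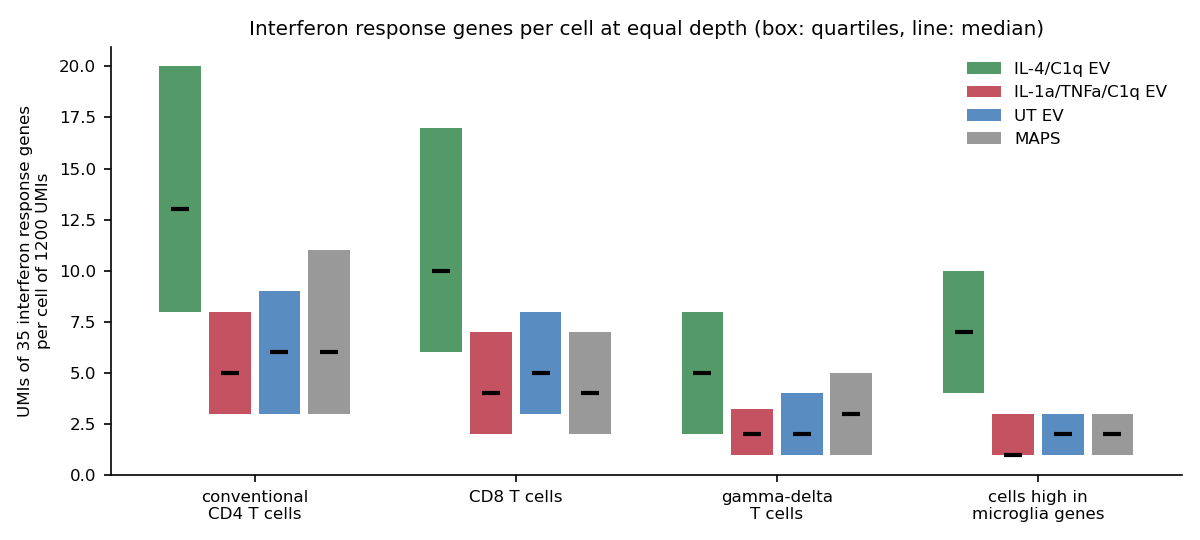
UMIs of 35 interferon response genes per cell after thinning to 1200 UMIs, by cell type and library; boxes span the quartiles over cells and lines mark the median. The CD4 T cells of IL-4/C1q EV have a median of 13, and the IL-4/C1q EV box is the highest in each of the 4 cell types shown. Foxp3 regulatory T cells are not drawn.

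The promoters of the genes that lay past 1.5-fold over IL-1a/TNFa/C1q EV were searched for GAAA followed after any 2 bases by GAAA, a core of the interferon-stimulated response element, on both strands and allowing overlaps. RefSeq windows (GRCm38.p6, 250 bases before to 50 after the gene start) matched 12 of those 16 genes, and 10 of the 12 held the motif (83.3%). Of 13 matched among the other 19 list genes, 6 held it (46.2%), as did 1131 of 32851 windows of all genes (3.44%). The windows of Irf7 and Xaf1 had no match. A match is a run of letters and not a shown binding site. The windows below show overlapping copies in Isg15, separate copies in the helicase gene Ddx60 and 1 copy in Ifi213; they read 5′ to 3′ along the gene, and capitals mark the motif.
Isg15, chr4:156200769-156201068, minus strand: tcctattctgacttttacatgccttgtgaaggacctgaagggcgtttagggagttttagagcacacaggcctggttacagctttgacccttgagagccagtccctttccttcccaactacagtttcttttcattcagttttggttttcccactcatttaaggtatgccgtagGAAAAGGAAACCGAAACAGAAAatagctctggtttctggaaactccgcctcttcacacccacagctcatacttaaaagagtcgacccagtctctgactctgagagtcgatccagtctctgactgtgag
Ddx60, chr8:61927837-61928136, plus strand: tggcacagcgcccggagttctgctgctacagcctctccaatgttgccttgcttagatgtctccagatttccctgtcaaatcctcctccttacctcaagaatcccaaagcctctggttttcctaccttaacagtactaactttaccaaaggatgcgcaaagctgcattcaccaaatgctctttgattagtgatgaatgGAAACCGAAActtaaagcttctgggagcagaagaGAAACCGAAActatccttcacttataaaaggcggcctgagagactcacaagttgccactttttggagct
Ifi213, chr1:173599223-173599522, minus strand: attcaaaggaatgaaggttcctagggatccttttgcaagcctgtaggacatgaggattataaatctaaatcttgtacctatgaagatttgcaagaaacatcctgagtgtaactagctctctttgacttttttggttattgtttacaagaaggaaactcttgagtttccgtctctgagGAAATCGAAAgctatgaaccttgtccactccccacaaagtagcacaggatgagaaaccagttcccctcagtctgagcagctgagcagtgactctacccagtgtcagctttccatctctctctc
In the CD4 T cells, the ratio of IL-4/C1q EV over IL-1a/TNFa/C1q EV was 4.32 for Ddx60 (1.57 to 12.9), on 12 and 7 UMIs, and 3.42 for Ifi213 (2.22 to 5.31), on 53 and 39 UMIs.

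Few genes separated the EV libraries, and the counts here include interferon response genes and Il17a. Of genes with at least 40 UMIs over the pair, 65 of 3177 (2.05%) lay more than 1.5-fold apart between IL-4/C1q EV and UT EV, 48 of them (1.51%) higher in IL-4/C1q EV and 17 (0.535%) lower. Against IL-1a/TNFa/C1q EV there were 97 of 4212 (2.3%), with 66 (1.57%) higher in IL-4/C1q EV and 31 (0.736%) lower. IL-1a/TNFa/C1q EV and UT EV differed in 93 of 4411 (2.11%), with 65 (1.47%) higher for IL-1a/TNFa/C1q EV and 28 (0.635%) lower. S100a4, a calcium-binding protein gene of migrating memory T cells, was 1.87-fold higher in IL-4/C1q EV than in UT EV (1.65 to 2.13), at 1215 and 649 CPM. Ikzf2, which encodes Helios, had 149 CPM in IL-4/C1q EV and 55.3 CPM in IL-1a/TNFa/C1q EV, a ratio of 2.69 (1.92 to 3.78). The chaperone genes Dnaja1 and Hsph1 were lower in IL-4/C1q EV than in UT EV, at 0.464 (0.389 to 0.551) and 0.386 (0.231 to 0.624) of its level.

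Division genes were low in UT EV. Birc5, which encodes the mitotic protein survivin, had 96.0 CPM in 8 cells of IL-4/C1q EV, 89.5 CPM in 19 cells of IL-1a/TNFa/C1q EV, 7.89 CPM in 2 cells of UT EV and 23.1 CPM in 12 cells of MAPS. Pclaf, a replication factor, had 29.4, 62.3, 1.58 and 88.0 CPM. Of the proliferation list, 5 of 12 measured genes lay more than 1.5-fold above UT EV in IL-4/C1q EV and 5 of 13 for IL-1a/TNFa/C1q EV; without cells holding C1qa, Lyz2, Cd79a or Cldn5 it was 0 of 5 and 2 of 9. Of all genes, 1.27% and 1.15% lay past 1.5-fold above UT EV. Without those cells, 11 of 1514 and 12 of 2032 genes with at least 40 UMIs over the pair did. Among the 12 and the 13 measured list genes, 1 in each was at 0 UMIs in UT EV. The cells behind this were few: Mki67 was seen in 2.12%, 2.18%, 0.806% and 4.11% of members at 1200 UMIs, with overlapping intervals among the EV libraries. Replication-dependent histone genes went with it between IL-1a/TNFa/C1q EV and UT EV, led by H2ac24 at 1004 and 89.9 CPM.

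Transcripts of other cell types also set EV libraries apart. The B cell list summed to 149 CPM in IL-4/C1q EV, 7241 in IL-1a/TNFa/C1q EV, 78.9 in UT EV and 243 in MAPS; Igkc gave 8354 of the UMIs in IL-1a/TNFa/C1q EV, 38.7% of them in 1 cell. The neutrophil list stood at 762, 444, 12.6 and 18.2 CPM, with 71.7% of the IL-4/C1q EV sum in 1 cell. Doublet calls covered 14, 33, 6 and 25 members. The part of these transcripts in the genes that separate the libraries was not tested, and the naming rule left out genes with more than 20% of their UMIs in 1 cell.

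The 4 libraries served as replicates for comparing CD4 with CD8 T cells, each summed per library, by edgeR's quasi-likelihood test with the library as a block. The genes of the gates were left out. Of 5671 genes, 348 (6.14%) passed an adjusted p of 0.05, with 159 (2.8%) higher in CD4 cells and 189 (3.33%) lower. The total was 208 without IL-4/C1q EV, 135 without IL-1a/TNFa/C1q EV, 159 without UT EV, 419 without MAPS and 28 without the block. Il17a led, with 1434, 2477, 1137 and 0.609 CPM in CD4 cells against 0, 33.9, 8.58 and 0.285 CPM in CD8 cells of IL-4/C1q EV, IL-1a/TNFa/C1q EV, UT EV and MAPS (here per 1000000 UMIs of the genes tested). The log2 fold change was 6.63 (SE 0.41, edgeR adjusted p = 1.12e-05); in MAPS each value is 1 UMI.

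Maf, a factor of helper cells that make IL-4, IL-10 and IL-21, was higher in CD4 cells of all 4 libraries, with 311, 286, 333 and 405 CPM against 18.3, 26.5, 28.6 and 37.6 CPM in CD8 cells. Its log2 fold change was 3.43 (SE 0.13, edgeR adjusted p = 3.38e-07), and the CD4 and CD8 values did not overlap. Tnfrsf4 had 705, 646, 558 and 82.9 CPM in CD4 cells against 58.7, 87.0, 51.5 and 5.70 CPM in CD8 cells, a log2 fold change of 3.23. Areg rose by 3.86 and Tnfsf8 by 2.47 on the log2 scale. Also among the 10 largest were Tnfrsf25, the TL1A receptor, at 3.13, Ramp3 at 2.58 and the glucose transport regulator Tbc1d4 at 2.51, with Podnl1 and Krt83.

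Cytotoxic genes were lower in CD4 cells: 12 of 12 listed genes fell, with a median log2 fold change of -2.94 against -0.01 for all genes. Gzma, a granule protease, fell to 98.5, 54.8, 101 and 11.6 CPM in CD4 cells, against 1903, 257, 812 and 383 CPM in CD8 cells. Eomes, the factor of cytotoxic memory cells, fell by 4.79 on the log2 scale and the lectin receptor gene Klre1 by 5.00. Gzmm, Cd7, Samd3, Klrc1, Wdr95, Cd160 and Ly6c2 made up the rest of the 10 largest decreases. A further 54 of the 189 lower genes encode ribosomal proteins, with small changes of -0.52 to -0.32 on the log2 scale.

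**Figure D5:**
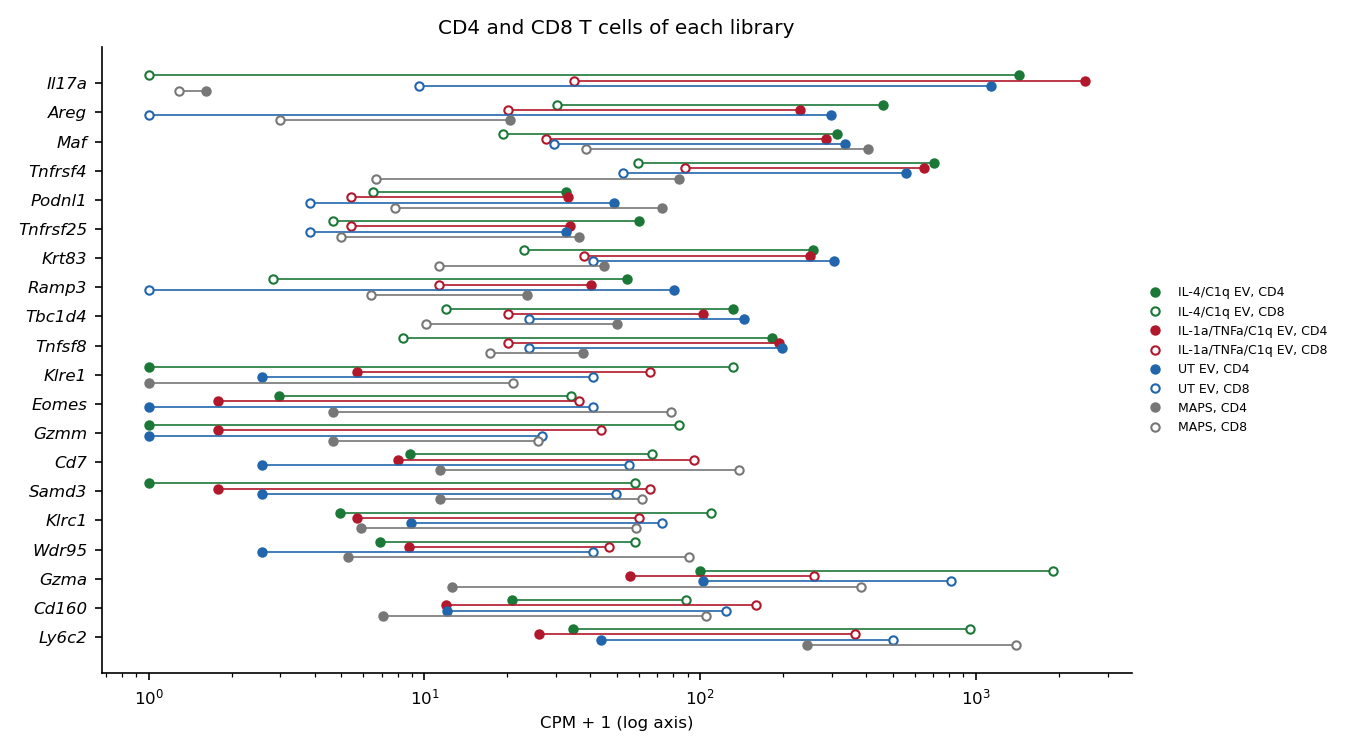
CPM + 1 on a log axis of the 20 genes with the largest log2 fold changes between CD4 (filled) and CD8 (open) T cells, 10 in each direction, with a line joining the cell types of each of the 4 libraries. Filled points lie right of open points in every library for the upper 10 genes and left of them for the lower 10, which the choice of genes required.

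Helper and activation lists held genes higher in CD4 cells, to be read against 2.8% of all genes higher and 3.33% lower. The gates differ in Cd40lg: 91, 302, 170 and 48 CD4 members entered by Cd40lg without Cd4, and CD8 cells had 0 Cd40lg UMIs by rule. The part of that choice in these lists was not tested. All 5 tested Th17 genes were higher, with a median of 1.88. Of 13 costimulatory genes 6 were higher and Cd27 lower; of 9 genes of TNF and NF-kB feedback 5 were higher, including Nfkbia at 0.96 and Birc3 at 1.24; and of 17 immediate early genes 7 were higher, including Junb at 0.82. Of 11 genes induced by the T cell receptor, 5 were higher and Nr4a2 fell by 1.29. Th1 genes split: Il18r1, an interleukin 18 receptor chain, was higher by 1.63, and Ccl5, Nkg7 and Runx3 were lower. Of 32 interferon response genes, Ifi27l2a was higher by 0.45 and 4 were lower, with a median of -0.22. No proliferation gene passed among 11.

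Regulatory T cells, with 11 to 38 cells a library, allowed a coarser test. Of 3587 genes, 26 (0.725%) passed, with 15 (0.418%) higher in conventional CD4 cells and 11 (0.307%) lower. Of the 15, 4 are haemoglobin genes. Cxcr6 had 871, 924, 980 and 741 CPM against 402, 171, 141 and 46.9 CPM in regulatory cells, a log2 fold change of 2.32 (SE 0.34, edgeR adjusted p = 0.0106). Tcf7 was higher by 3.19, with 590 UMIs against 4, and Xcl1, a chemokine gene, had 323 UMIs against 0, at least 8.15-fold higher over a floor of 3 UMIs in the summed regulatory cells. Il2ra fell by 2.48, Ikzf2 by 2.57 and Tnfrsf4 by 1.33, all genes known from regulatory cells. Areg was also lower, with 459, 229, 298 and 19.5 CPM against 827, 891, 2483 and 46.9 CPM. Of 5 regulatory markers tested 3 were lower, beside Foxp3, which set the gate.

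Several genes of this contrast are known from oligodendrocytes: Mal, Cryab and Ptgds were higher in conventional cells, by 2.54, 2.39 and 1.57 on the log2 scale. Their part in the contrast was not tested. The 20 named genes of either contrast were picked for the same sign in every library, so leaving out a library gives no check of their direction. None turned where a value could be had, which excepts Il17a against CD8 cells without IL-1a/TNFa/C1q EV. Against regulatory cells the 26 calls became 16 without IL-4/C1q EV, 9 without IL-1a/TNFa/C1q EV, 42 without MAPS and 4 without the library block.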

How the data were processed

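Single-cell RNA libraries were made on the 10x platform after enzymatic dissociation and removal of red blood cells and dead cells, per the labels. The deposited values are UMI counts per gene and cell barcode in 55357 genes, not normalized; cellranger 8.0.1 stands in the matrix headers, but Cell Ranger 7.0.0, Seurat 4.1.0 and GRCm39 stand in the submitters' processing notes. Barcodes were dropped below 500 UMIs, below 300 genes or above a mitochondrial share of 20%. Symbols that occur more than once were left out. Doublets were called with scrublet in scanpy 1.11.5 (3.64% to 5.29% of kept cells) and kept in the main values.

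Libraries were compared by UMIs summed over CD4 T cells, as CPM ratios with exact conditional binomial 95% intervals; a gene counts as apart when the whole interval lies beyond 1.5-fold, on at least 40 UMIs over the pair (10 for gene lists). Shares have exact Clopper-Pearson intervals. Cells high in microglia genes had at least 5 UMIs of the microglia genes and 0 of the T cell genes, with 3000 drawn per library. Cell types were compared over the 4 libraries with edgeR 4.0.16 (quasi-likelihood, library as a block, Benjamini-Hochberg adjustment), tested on simulated data first; DESeq2 1.42.0 served as an alternative. PCR copies are collapsed by UMIs, and the labels do not say whether libraries pool animals. With the library as a block, p-values measure the spread of the cell type difference over these libraries. Alternatives were thinning, TMM factors, other gates, left-out doublets, filters and left-out libraries, and, chosen after seeing the data, left-out cells with C1qa, Lyz2, Cd79a or Cldn5; a planned version of the last one is not reported here.

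Genes named between libraries are the first 6 each way by the interval bound nearest 1, seen in at least 10 cells, with at most 20% of UMIs in 1 cell and at least 2 times the free RNA level; for cell types, the 10 largest changes each way of one sign in all libraries and at least 10 CPM; and list members. Some of the genes so ranked are not printed, and others, such as Trbc2, Bcl2a1b and Ptprc among list members, were chosen after their values were seen. The members and lists were chosen with earlier results of these data known.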

Additional observations from a re-analysis of the deposited data

How the results depend on the processing

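No paired analysis was possible because each group is 1 library. With cells thinned to 1200 UMIs before the gates, CD4 T cells were 1.03%, 2.20%, 1.48% and 1.27% of kept cells in IL-4/C1q EV, IL-1a/TNFa/C1q EV, UT EV and MAPS, and with Cd4 alone in the gate 0.726%, 1.35%, 0.689% and 2.13%. CD4 cells per CD8 cell became 0.502, 0.745, 0.667 and 0.454 with Cd4 alone, and 1.55 in UT EV and 0.271 in MAPS after thinning. Thinning took the genes apart to 19 for IL-4/C1q EV over UT EV, 37 for IL-4/C1q EV over IL-1a/TNFa/C1q EV, 37 for IL-1a/TNFa/C1q EV over UT EV, and 867, 1507 and 941 for these EV libraries over MAPS; the 518 cells without C1qa, Lyz2, Cd79a and Cldn5, a choice made after seeing the data, gave 22, 20, 26, 859, 1484 and 1090, and put the Interferon response list at 0.12 for IL-1a/TNFa/C1q EV over UT EV and at -1.48 for UT EV over MAPS. Fewer UMIs entered both. TMM factors put the naive list at -1.08, -1.55 and -0.98 over MAPS and the interferon list at 0.56, -0.72 and -0.047; thinning gave -0.95 for the interferon list in IL-1a/TNFa/C1q EV over MAPS. At 2000 UMIs, 32.0% of IL-1a/TNFa/C1q EV members had Il17a.

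Against CD8 cells, 348 genes became 223 with DESeq2, 585 without a filter, 28 without the library block and 135 to 419 with 1 library left out (208 without IL-4/C1q EV, 135 without IL-1a/TNFa/C1q EV, 159 without UT EV, 419 without MAPS). Of 174 alternative values of its named genes, 164 stayed past the threshold and 10, all without the block, did not. Against regulatory cells, 26 genes became 186 without a filter, 4 without the block, 70 with thinned cells and 9 to 42 with 1 library left out (16, 9, 21 and 42 in the same order), and 67 of 172 values of its named genes missed the threshold. No direction changed among these 174 and 172 values, but the named genes were picked for the same sign in every library. Thinning left no value for Il17a, Areg, Ramp3, Eomes and Gzmm against CD8 cells and for 8 genes against regulatory cells, and Il17a had none without IL-1a/TNFa/C1q EV. The cause of these changes was not tested. Regulatory cells limit the depth of that contrast, and 1 library per group leaves every difference between libraries without a measure of error beyond counting.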
